A study of Homo sapiens with 4 samples.

Results

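The comparison described here set HuCCT1 cells given GEM and VPA together against HuCCT1 cells given VPA alone, so it asked what transcripts looked like when GEM was added to VPA. HuCCT1 is an established human cholangiocarcinoma (bile duct cancer) cell line. The members were chosen by their labels only: the array labelled GEM_VPA combination and the array labelled VPA, 2 of the 4 arrays of the series, with 1 array for each condition. The other 2 arrays, untreated cells and cells given GEM alone, served to place the values. VPA and GEM are the abbreviations of the labels and are read here as valproic acid and gemcitabine. The sources used here do not give doses, exposure times, culture batches or the number of cultures behind each RNA.

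Gemcitabine is a deoxycytidine analogue that enters cells through nucleoside transporters, is phosphorylated by deoxycytidine kinase, and blocks DNA chain extension and ribonucleotide reductase. The stalled forks that follow switch on checkpoint kinases and p53. Valproic acid is a short-chain fatty acid that inhibits class I and IIa histone deacetylases (HDACs), and so raises histone acetylation. Both agents are known to arrest dividing cells. Transcripts of E2F target genes are made in late G1, S and G2 phase, so their level depends on where cells stop.

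All values are log2 intensities as deposited, and a difference is the combination array minus the VPA array. A difference of 1 is 2-fold. With 1 array on each side there was no replicate, so differences are sizes without an error or a test, and "higher" and "lower" compare 2 arrays. A gene was called different when its difference was at least 1 in size, the ratio limits of 2 and 0.5 in the series' text, and its higher value was at least the median of all rows on that array. The columns were also scaled by a second quantile normalization and by median centring of each array. Where this changed the call of a named gene, a changed value is given with it or later. Counts of list members also moved, and most are given as deposited only.

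The labelled cell type was checked against markers. All 7 measured biliary epithelial markers (KRT7, KRT19, KRT8, KRT18, EPCAM, SOX9 and CDH1) lay above the array median on all 4 arrays, and their summed level was 15.48 untreated, 15.91 with VPA, 15.92 with GEM and 15.45 on the combination array. Of these 7 genes 6 lay below 0 (median -0.49). Of 13 leukocyte markers 2 lay above the median on every array, of 10 fibroblast markers 1, of 8 endothelial markers 1, of 10 hepatocyte markers 2 and of 9 neuronal markers 2. The summed leukocyte level was 11.83 on the VPA array and 11.10 on the combination array. The summed neuronal level was 11.87 and 11.12, and the hepatocyte level was 10.90 and 10.44. The members past the rule were KRT7 (-2.57) of the biliary list and, of the other lists, CD68 (-1.28), SERPINA1 (-1.23), MAP2 (-1.47) and L1CAM (-1.10), all lower on the combination array. The part of other cell types in the results was not tested.

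The combination array was closer to the untreated array than to the VPA array. Over all 28869 rows it correlated at 0.996 with the untreated array, 0.987 with the VPA array and 0.984 with the GEM array. The robust SD of the differences over genes was 0.253 against VPA and 0.147 against untreated. The VPA and GEM arrays correlated at 0.996 with each other, so the 4 arrays formed 2 close pairs, VPA with GEM and untreated with the combination. The robust SD between VPA and GEM was 0.158. All directions follow the labels, and nothing measured here checks which agent each culture received. Exchanged labels and a true likeness of the conditions cannot be told apart with these arrays, and this bears on every difference given below. Genes of an HDAC inhibitor response list (19 measured) had median differences from untreated of 0.24 on the VPA array, 0.14 on the GEM array and 0.08 on the combination array.

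Of 18377 measured genes, 172 were at least 2-fold higher on the combination array (0.936% of all genes) and 195 at least 2-fold lower (1.06%). The median difference of all genes was -0.01, and 48.2% of genes lay above 0. The decreases included the larger sizes. At 3-fold 12 genes were higher and 39 lower, and at 4-fold 3 were higher and 18 lower, whereas at 1.5-fold 1064 were higher and 686 lower. Median centring turned the balance, with 225 higher and 163 lower (58.0% higher against 46.9%). A further 13 genes were past 2-fold below the level limit, among them LY96 (-2.47), UTS2B (-1.97), the histone gene H2AC14 (1.95) and DBF4 (1.08). The calls nearest the limit were PRIM1 (1.002) and EXO1 (1.004) just inside and PSD3 (0.998) and SASS6 (0.995) just outside on the higher side. On the lower side KLK10 (-1.001) and HCP5 (-1.003) lay just inside, and ZNF804A (-0.997) and GRN (-0.996) just outside.

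**Figure D1:**
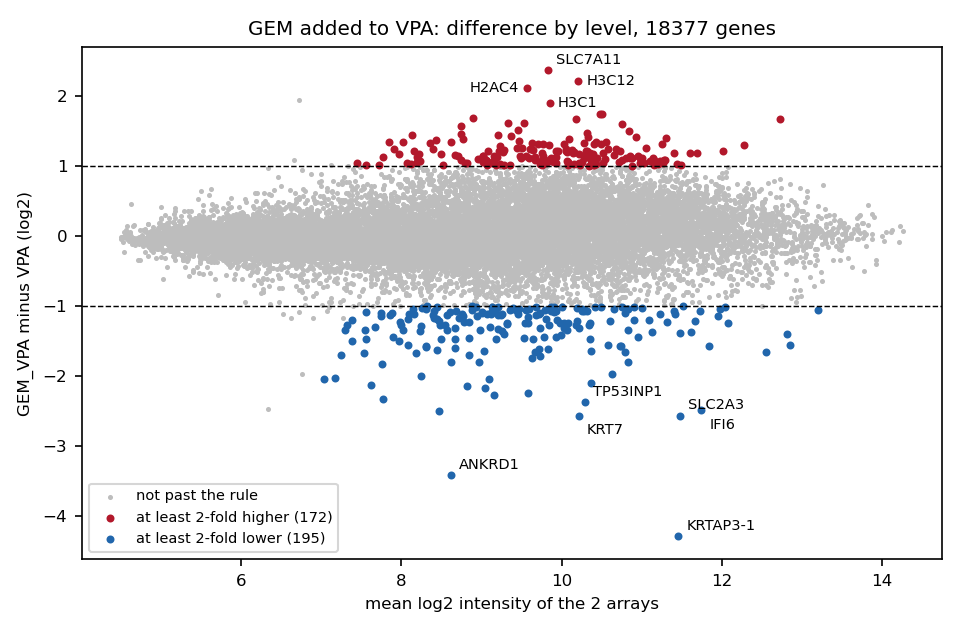
Difference between the combination and VPA arrays (log2, vertical axis) against the mean log2 intensity of the 2 arrays (horizontal axis), 1 point per gene. Red points are the 172 genes at least 2-fold higher and blue points the 195 at least 2-fold lower, with dashed lines at 2-fold; the lower side reaches -4.29 at KRTAP3-1 and the higher side 2.37 at SLC7A11.

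The genes with the largest increase were led by amino acid transporters and replication-dependent histones. SLC7A11, the cystine and glutamate exchanger that feeds glutathione synthesis, read 10.93 untreated, 8.64 with VPA, 8.66 with GEM and 11.01 with both. Its level was 5.17-fold higher on the combination array than on the VPA array, and the untreated and combination arrays were high while both single-drug arrays were low. SLC7A2, a transporter of cationic amino acids, read 9.61, 8.05, 7.80 and 9.74 in the same order and was 3.23-fold higher. DLEU2, a non-coding RNA gene that hosts the microRNA genes miR-15a and miR-16-1, read 11.08, 9.60, 8.77 and 11.35 and was 3.36-fold higher. Here the GEM array was the lowest of the 4. THOC6, a subunit of the THO complex of mRNA export, read 11.87, 9.95, 10.28 and 11.56 and was 3.03-fold higher. PARPBP, a regulator of homologous recombination, read 9.55, 7.96, 7.61 and 9.53 and was 2.97-fold higher.

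Replication-dependent histone genes supply the nucleosomes of newly copied DNA and are transcribed in S phase. Of 63 listed, 50 were measured and 32 of those were at level. On the combination array 16 of the 50 were at least 2-fold higher and 1 was lower, 45 lay above 0, and the median difference was 0.63 (0.99 over the members at level). H3C12 read 11.39 untreated, 9.10 with VPA, 8.78 with GEM and 11.32 with both, a 4.65-fold increase over VPA. H2AC4 read 10.95, 8.51, 8.45 and 10.63 and was 4.34-fold higher. H3C1 read 10.96, 8.90, 9.06 and 10.80 and was 3.72-fold higher. On all 3 the single-drug arrays stood together at the low end. H4C2 (1.74), H2BC14 (1.68), H4C4 (1.67), H2AC13 (1.52), H2BC7 (1.40), H4C1 (1.35), H1-2 (1.33), H3C2 (1.30) and H4C3 (1.21) followed. H2BC12 went the other way, reading 11.52, 12.31, 13.08 and 10.93, so it was 2.59-fold lower on the combination array than with VPA. Many histone genes resemble each other so closely that 1 row may report several, so single-gene values in this group are uncertain. Of 8 replication-independent histone genes 0 passed the rule, and the 2 with the largest sizes, MACROH2A2 and H2AZ2, were at 0.68 and 0.67.

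The promoters of H2AC4 and H2BC14 are shown as examples of this group, since both genes were among the 10 with the largest increase. Each window runs from 250 bases before to 50 bases after the gene's RefSeq start (GRCh38.p14), and capitals mark CCAAT or its reverse ATTGG and TATAAA or its reverse TTTATA.
H2AC4, chr6:26033569-26033868, minus strand: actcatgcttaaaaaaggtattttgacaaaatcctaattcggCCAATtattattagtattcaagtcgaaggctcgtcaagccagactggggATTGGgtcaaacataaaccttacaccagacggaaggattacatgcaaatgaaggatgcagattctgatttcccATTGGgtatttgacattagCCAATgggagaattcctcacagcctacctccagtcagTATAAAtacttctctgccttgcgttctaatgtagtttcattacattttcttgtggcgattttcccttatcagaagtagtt
H2BC14, chr6:27814772-27815071, plus strand: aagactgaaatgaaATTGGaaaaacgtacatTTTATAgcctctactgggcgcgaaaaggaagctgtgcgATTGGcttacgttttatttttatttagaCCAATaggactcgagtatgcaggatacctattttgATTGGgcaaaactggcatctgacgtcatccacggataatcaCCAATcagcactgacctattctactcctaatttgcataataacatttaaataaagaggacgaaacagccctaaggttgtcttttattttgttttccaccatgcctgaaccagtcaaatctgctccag
The H2AC4 window held 4 CCAAT matches, and its TATAAA began 30 bases before the start. The H2BC14 window held 5 CCAAT matches, and its TTTATA began 219 bases before the start. A match is a run of letters and not a shown binding site.

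Genes that license and fire replication origins were higher throughout the list on the combination array. The origin recognition complex loads the MCM2 to MCM7 helicase with CDC6 and CDT1, and CDC45 and GINS then activate it. All 28 measured members lay above 0, 10 were at least 2-fold higher and 0 lower, and the median was 0.82. ORC1, the largest subunit of the recognition complex, read 10.21 untreated, 8.65 with VPA, 8.49 with GEM and 10.08 with both and was 2.70-fold higher. The helicase subunit MCM5 read 11.30, 9.84, 9.73 and 11.14 and was 2.48-fold higher. Other helicase subunits were at 1.24 (MCM6), 1.22 (MCM2), 1.21 (MCM4), 1.19 (MCM7) and 1.05 (MCM3, and 0.96 after a second quantile normalization). MCM10, which helps to start unwinding, was at 1.24, TOPBP1, a loading factor and checkpoint activator, at 1.11, and GMNN, geminin, the inhibitor of CDT1, at 1.02 (0.94 after a second quantile normalization). DBF4B (0.04) and CDC6 (0.23) were lowest in the list.

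Of 34 DNA polymerase and fork genes 9 were at least 2-fold higher, 1 was lower and 33 lay above 0, with a median of 0.75. POLA1, the catalytic subunit of the polymerase that lays primers, read 9.84, 8.52, 8.12 and 10.14 over untreated, VPA, GEM and combination and was 3.08-fold higher than with VPA. The combination array was the highest of the 4 for this gene. POLE2 (1.35) and POLD3 (1.23) are subunits of the leading- and lagging-strand polymerases, RFC3 (1.19) and RFC4 (1.09) load the sliding clamp, and CLSPN (1.28) and TIMELESS (1.09) protect forks. POLD4, the small subunit of polymerase delta, was the exception, reading 9.66, 10.98, 10.71 and 9.74, or 2.37-fold lower on the combination array.

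**Figure D2:**
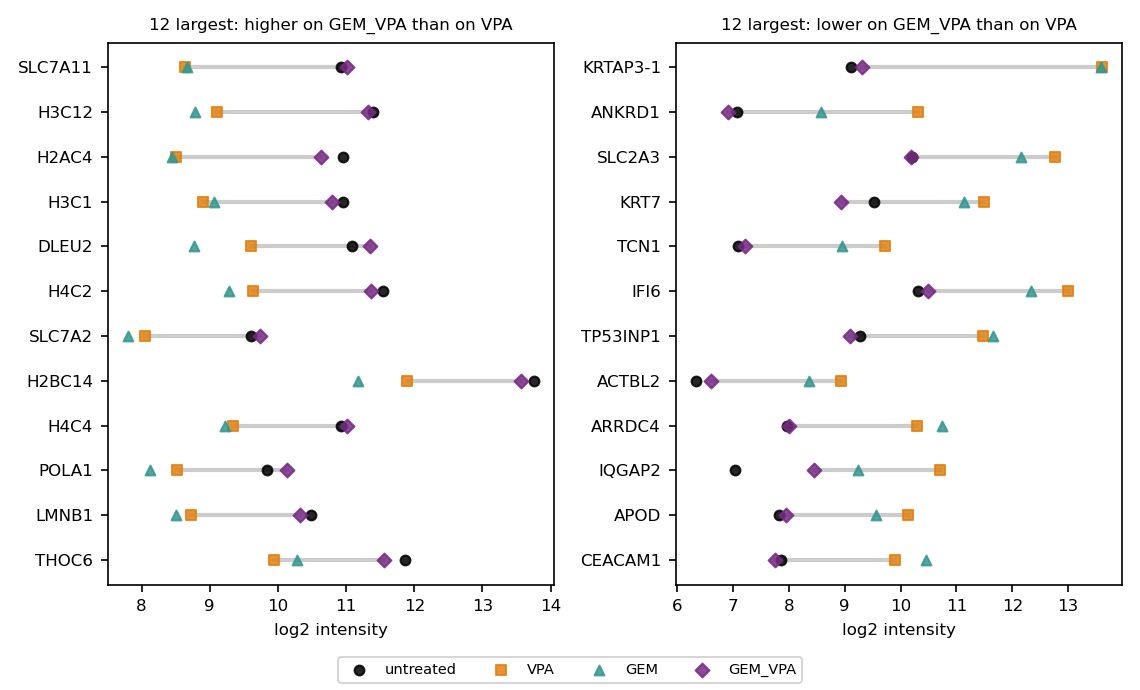
Log2 intensity (horizontal axis) on each of the 4 arrays for the 12 genes with the largest increase (left) and the 12 with the largest decrease (right) from VPA to the combination. Black circles are untreated, orange squares VPA, green triangles GEM and purple diamonds the combination; grey bars join VPA and combination. The purple and black marks sit together for most genes, and IQGAP2 is the gene with them farthest apart.

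Mitotic genes were higher too. Of 25 mitotic kinases and cyclins all 25 lay above 0 and 5 were at least 2-fold higher (median 0.76). PLK4, the kinase that starts centriole copying, read 11.24, 9.62, 9.54 and 11.03 and was 2.66-fold higher. PBK (1.26), TTK, the spindle checkpoint kinase (1.18), MELK (1.14) and BUB1B (1.07) also passed, and BUB1B was 0.99 after a second quantile normalization. Of 34 kinetochore and checkpoint genes all 34 lay above 0 and 8 passed (median 0.69), led by NUF2 (1.18), CENPH (1.13), CENPF (1.12), MIS12 (1.12) and MAD2L1 (1.12). Of 26 mitotic kinesin and spindle genes all 26 lay above 0 and 3 passed (median 0.75). These were the spindle motors KIF15, which read 9.47, 8.02, 7.82 and 9.48 (2.75-fold higher), KIF11 (1.17) and KIF14 (1.06).

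Condensins compact mitotic chromosomes and cohesins hold sister chromatids together. Of 20 such genes 7 were at least 2-fold higher and all 20 lay above 0, with a median of 0.75. SMC4, a core condensin subunit, read 11.55 untreated, 10.23 with VPA, 9.87 with GEM and 11.64 with both (2.66-fold higher), and its partner SMC2 was at 1.13. The cohesin genes STAG1 and SMC3 were at 1.38 and 1.22. Of 39 nuclear lamina and pore genes 4 passed, 38 lay above 0 and the median was 0.57. LMNB1, lamin B1 of the nuclear envelope, read 10.48, 8.72, 8.51 and 10.33 and was 3.05-fold higher. TMPO, a lamina-binding protein, was at 1.31, and the pore genes NDC1 and NUP35 were at 1.08 and 1.07.

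Of 44 damage signalling and repair genes 6 were at least 2-fold higher, 0 were lower and 41 lay above 0, with a median of 0.58. CHEK1, the kinase that holds stalled forks, read 11.49 untreated, 10.39 with VPA, 10.35 with GEM and 11.53 with both (2.20-fold higher). FANCM (1.24) and FANCI (1.09) belong to the crosslink repair pathway, USP1 (1.15) removes ubiquitin from it, and XRCC2 (1.12) acts in homologous recombination. Of 6 measured mismatch repair genes 2 passed, MSH6 (1.20) and the exonuclease EXO1 (1.004). After a second quantile normalization EXO1 was at 0.93, under the limit.

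Genes that handle gemcitabine were balanced around 0. Of 17 measured, 0 were at least 2-fold higher and 1 was lower, and the median was 0.04 (-0.05 after a second quantile normalization). CDA, the deaminase that inactivates gemcitabine, read 10.81 untreated, 12.17 with VPA, 12.09 with GEM and 10.79 with both. It was 2.62-fold lower on the combination array than on the VPA array. DCK, the activating kinase, read 10.67, 10.01, 9.60 and 10.51, a difference of 0.50 that did not pass. The nucleoside transporter SLC29A1 was at 0.33, NT5C3A, a nucleotidase, at 0.97 (1.02 after median centring) and ABCC10, an efflux transporter, at -0.82. Among 25 dNTP pool genes 23 lay above 0 (median 0.36) and only DUT passed. DUT, which removes dUTP, read 9.80, 8.47, 8.30 and 9.68 (2.31-fold higher). The gemcitabine target subunits RRM1 and RRM2 were at 0.43 and 0.36, TYMS, thymidylate synthase, at 0.99 (1.05 after median centring, which made it the second gene past the rule), and RRM2B, the p53-induced subunit, at -0.56.

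Outside the cell cycle, ATF4 and amino acid supply genes had a median of 0.25, with 37 of 45 above 0 and 3 at least 2-fold higher. The members past the rule were SLC7A11 and SLC7A2, above, and ASNS, asparagine synthetase, which read 10.48, 9.23, 9.14 and 10.30 (2.10-fold higher). DDIT4, a stress-induced brake on mTOR, lay at the other end at -0.71. INSIG1, which restrains sterol synthesis, read 10.73, 9.19, 8.78 and 10.49 (2.46-fold higher), while TM7SF2, a sterol reductase, was at -1.19. These were the only 2 of 35 cholesterol and fatty acid genes past the rule, and the list median of 0.05 was -0.04 after a second quantile normalization. Of 40 heat shock and unfolded protein genes 1 passed, the chaperone HSPH1 (1.03, and 0.94 after a second quantile normalization). Other single genes, chosen after their values were seen, were the chromatin protein HMGB2 (1.32), the histone chaperone NASP (1.18), MYB (1.14), the mitochondrial DNA factor TFAM (1.13) and the splicing proteins SNRPD1 (1.24), SRSF4 (1.17) and LSM6 (1.15).

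**Figure D3:**
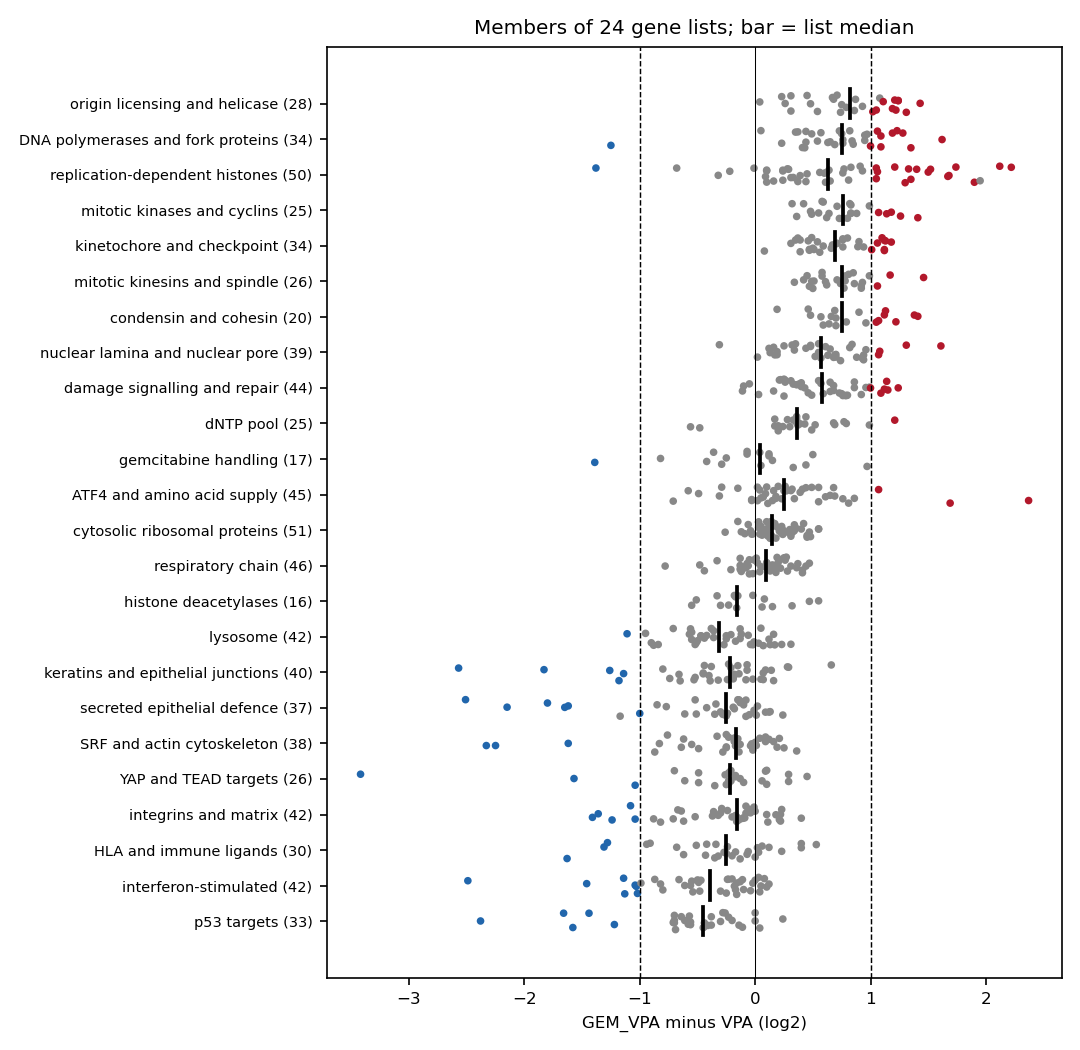
Differences between the combination and VPA arrays (log2, horizontal axis) for every measured member of 24 gene lists, with the number measured in brackets. Black bars are list medians, red and blue points pass the 2-fold rule, and dashed lines mark 2-fold; medians run from 0.82 for origin licensing to -0.45 for p53 targets.

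The largest decreases came from genes that stood high on both single-drug arrays. KRTAP3-1, a hair keratin-associated protein gene, read 9.12 untreated, 13.60 with VPA, 13.59 with GEM and 9.32 with both. It was 19.5-fold lower on the combination array than on the VPA array. Its 2 rows held the same values, so they were no independent check of each other. Among 67 measured KRTAP genes 3 were lower and 0 higher, the others being KRTAP4-4 (-1.35) and KRTAP4-2 (-1.33). TCN1, a vitamin B12 carrier, read 7.09, 9.73, 8.96 and 7.21 and was 5.71-fold lower. APOD, an apolipoprotein, read 7.83, 10.13, 9.56 and 7.96 and was 4.49-fold lower. RASGRP3, a Ras activator, read 6.33, 8.69, 8.66 and 6.56 (4.39-fold lower). FXYD3, which modulates the sodium pump, and PTAFR, the platelet-activating factor receptor, were 4.29-fold and 4.14-fold lower. For these genes the combination array lay within 0.36 of the untreated array.

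The KRTAP3-1 promoter is printed because this gene had the largest difference of all, with TATAAA in capitals.
KRTAP3-1, chr17:41009079-41009378, minus strand: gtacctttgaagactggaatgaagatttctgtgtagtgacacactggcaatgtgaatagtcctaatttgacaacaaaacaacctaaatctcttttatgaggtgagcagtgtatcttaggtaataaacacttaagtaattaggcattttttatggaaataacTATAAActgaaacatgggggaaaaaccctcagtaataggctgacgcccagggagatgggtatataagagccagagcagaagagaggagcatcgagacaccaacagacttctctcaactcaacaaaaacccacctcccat
The 1 marked match began 89 bases before the start. Only the exact letters were marked, so the related run TATATAA nearer the start stayed in lower case.

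Of 33 measured p53 target genes 5 were at least 2-fold lower, 0 were higher and 30 lay below 0, with a median of -0.45. TP53INP1, which promotes p53-driven death and autophagy, read 9.28 untreated, 11.48 with VPA, 11.66 with GEM and 9.10 with both (5.20-fold lower than with VPA). CDKN1A, which encodes the CDK inhibitor p21, read 11.17, 12.63, 13.04 and 11.05 (2.99-fold lower). The GEM array was the highest for both genes. GDF15, a stress cytokine, was at -1.66, TP53I3, an oxidoreductase, at -1.44 and PLK3, a stress kinase, at -1.22. MDM2, the p53 ubiquitin ligase, was at -0.38 and the death receptor gene FAS at -0.70, neither past the rule (both named after their values were seen). Of 28 apoptosis genes 1 passed, the inflammatory caspase gene CASP4 (-1.02, and -0.98 after a second quantile normalization), and BCL2L1 was at 0.38. Among 29 G1 cyclin, CDK inhibitor and E2F genes 1 was higher, the pocket protein gene RBL1 (1.33), and 1 lower, BTG1, an antiproliferative gene (-1.03, and -0.97 after median centring). CCND1 was at -0.09.

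Epithelial keratin and junction genes had a median of -0.22 over 40 measured members, with 5 lower, 0 higher and 31 below 0. KRT7, a keratin of ductal epithelium, read 9.53 untreated, 11.50 with VPA, 11.14 with GEM and 8.93 with both. It was 5.93-fold lower on the combination array than with VPA, and the combination array was the lowest of the 4. KRT20, an intestinal-type keratin, read 7.41, 8.67, 8.39 and 6.84 (3.56-fold lower). KRT23 (-1.26), the epidermal transcription factor GRHL3 (-1.18) and KRT80 (-1.14) also passed. CDH1, E-cadherin, was at -0.66 and did not. Of 21 EMT and mesenchymal genes only FN1, fibronectin, passed, and VIM, vimentin, was at 0.09.

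A list of secreted epithelial defence genes, which also holds the adhesion gene CEACAM1, followed. Its member of largest size was TCN1 (-2.51), described above. Of 37 measured, 6 were lower and 0 higher, and 31 lay below 0 (median -0.25, and -0.61 over the members at level). CEACAM1, an adhesion protein, read 7.86 untreated, 9.90 with VPA, 10.45 with GEM and 7.75 with both (4.45-fold lower than with VPA). SLPI, a protease inhibitor of mucosal fluids, read 7.52, 9.53, 8.84 and 7.72 (3.49-fold lower). LCN2, lipocalin 2, which binds iron siderophores, read 8.81, 9.86, 11.22 and 8.21 (3.14-fold lower). The GEM array was highest for CEACAM1 and LCN2 and the VPA array for SLPI. The kallikrein proteases KLK5 and KLK10 were at -1.62 and -1.001, and KLK10 was at -0.94 after median centring.

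Some of the largest sizes were among targets of the Hippo pathway effector YAP. Others were in a list that joins targets of the actin-sensing factor SRF with other actin cytoskeleton genes. ANKRD1, a YAP target that encodes an ankyrin repeat protein, read 7.07 untreated, 10.32 with VPA, 8.57 with GEM and 6.91 with both and was 10.7-fold lower than with VPA. CCN1, a secreted matrix protein, read 9.66, 11.53, 10.93 and 9.96 (2.97-fold lower), and F3, tissue factor, was at -1.04 (-0.99 after median centring). These were the 3 of 26 YAP and TEAD targets past the rule (median -0.22, 19 below 0). Of 38 SRF and actin genes 3 were lower and 0 higher, with a median of -0.17. ACTA2, smooth muscle actin, read 9.04, 10.65, 10.60 and 9.02 (3.08-fold lower). ACTBL2, which has near-identical actin relatives, read 6.34, 8.93, 8.37 and 6.61 (5.02-fold lower). IQGAP2, a scaffold protein that binds actin, read 7.04, 10.70, 9.24 and 8.45 (4.77-fold lower).

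The ANKRD1 promoter is shown as that of the second largest decrease, with CATTCC or its reverse GGAATG, the letters that TEAD factors bind, in capitals.
ANKRD1, chr10:90921038-90921337, minus strand: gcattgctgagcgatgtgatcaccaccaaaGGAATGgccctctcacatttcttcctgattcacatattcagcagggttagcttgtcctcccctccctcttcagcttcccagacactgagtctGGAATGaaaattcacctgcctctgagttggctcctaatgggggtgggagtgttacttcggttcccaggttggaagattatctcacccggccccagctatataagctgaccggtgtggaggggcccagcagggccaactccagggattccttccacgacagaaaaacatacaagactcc
Both matches lay more than 100 bases upstream, at 220 and 128 bases before the start.

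Of 42 integrin and matrix genes 5 were lower and 0 higher, with a median of -0.16 (-0.31 over the members at level) and 33 below 0. TGM2, which crosslinks matrix proteins, read 10.90, 13.52, 12.96 and 12.11 (2.66-fold lower than with VPA), so the combination array stayed above the untreated array. HSPG2, perlecan, was at -1.36, the laminin genes LAMB2 and LAMB3 at -1.24 and -1.04 and the integrin gene ITGB8 at -1.08. LAMB3 was at -0.98 after median centring. FN1 had the same order of arrays as TGM2, reading 8.82, 11.52, 10.90 and 9.95 (2.98-fold lower).

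Interferon-stimulated genes, which encode antiviral proteins, had a median of -0.39 over 42 measured members. Of these 7 were lower, 0 higher and 35 below 0. IFI6, a mitochondrial survival protein, read 10.31 untreated, 12.99 with VPA, 12.33 with GEM and 10.50 with both (5.62-fold lower than with VPA). SAMD9 read 8.36, 10.25, 9.95 and 8.80 (2.75-fold lower). Sensors and effectors followed with RIGI (-1.13), IFITM1 (-1.14), IFITM2 (-1.04), PARP9 (-1.03) and IFI35 (-1.02). IFITM2 and PARP9 were at -0.98 after median centring, and the list then held 4 lower genes. TLR3, the sensor of double-stranded RNA in endosomes, read 8.93, 9.93, 10.69 and 8.44 (2.80-fold lower) and was chosen after its values were seen.

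The IFI6 promoter is shown for the interferon-stimulated list, with the core of the interferon response element (TTTC, any pair of bases, then TTTC, or the reverse GAAA, any pair of bases, then GAAA) in capitals.
IFI6, chr1:27672143-27672442, minus strand: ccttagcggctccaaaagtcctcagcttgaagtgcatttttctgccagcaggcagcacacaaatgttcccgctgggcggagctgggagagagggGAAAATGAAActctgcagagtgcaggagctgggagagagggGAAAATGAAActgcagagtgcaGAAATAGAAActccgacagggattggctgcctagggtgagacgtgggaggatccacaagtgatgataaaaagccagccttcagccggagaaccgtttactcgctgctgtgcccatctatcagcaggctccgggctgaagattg
It held 3 matches, at 156, 115 and 93 bases before the start.

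Of 30 HLA and immune ligand genes 3 were lower, all of HLA class II, the molecules that present antigen to helper T cells. HLA-DPA1 read 7.27, 9.26, 8.44 and 7.63 (3.10-fold lower), HLA-DMA 8.86, 10.39, 9.39 and 9.08 (2.47-fold lower) and HLA-DPB1 7.24, 9.12, 7.72 and 7.85 (2.42-fold lower). All 3 stood highest on the VPA array, and each took the mean of 3 rows that may share probes with other HLA copies. The list does not hold every class II gene, and others outside it were also at least 2-fold lower. Of 39 NF-kB and chemokine genes only IL1RN, the interleukin-1 receptor antagonist, passed (-1.30), and NFKB1 was at 0.89. Of 34 AP-1 and immediate-early genes only JUN passed, reading 9.36, 10.80, 10.65 and 9.58 (2.32-fold lower), while FOS was at 0.46.

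Glucose uptake genes included 2 of the largest decreases. SLC2A3, the high-affinity glucose transporter GLUT3, read 10.20 untreated, 12.76 with VPA, 12.16 with GEM and 10.19 with both (5.94-fold lower than with VPA). Its close copy SLC2A14 was at -1.75 and the probes of the pair may not tell them apart. ARRDC4, an alpha-arrestin that is induced by the glucose sensor MondoA, read 7.97, 10.29, 10.75 and 8.01 (4.85-fold lower). MLXIPL, a related glucose-responsive factor, was at -1.27 and the transporter SLC2A12 at -1.19. Of 36 alpha-arrestin and glucose genes these 4 were lower and 0 higher, and the list median of -0.01 turned to 0.04 after median centring. TXNIP, the best known MondoA target, was at 0.02.

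The ARRDC4 promoter is shown with CACGTG, the E-box core that MondoA and related factors bind, in capitals.
ARRDC4, chr15:97960453-97960752, plus strand: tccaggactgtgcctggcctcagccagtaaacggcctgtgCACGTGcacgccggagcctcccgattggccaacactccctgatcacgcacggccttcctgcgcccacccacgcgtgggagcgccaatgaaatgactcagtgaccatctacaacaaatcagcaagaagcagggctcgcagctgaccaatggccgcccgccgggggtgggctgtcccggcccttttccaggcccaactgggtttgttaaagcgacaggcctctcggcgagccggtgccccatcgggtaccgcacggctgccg
The 1 match began 210 bases before the start.

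Transporters and lysosomal genes showed smaller shifts. Of 30 ABC transporter genes 3 were lower: ABCC3, a bile salt and drug conjugate exporter, at -1.32, ABCA12, a lipid transporter, at -1.27 and ABCA7 at -1.10. ABCA12 stood highest with GEM, reading 6.76 untreated, 7.95 with VPA, 9.08 with GEM and 6.68 with both. Of 42 lysosome and autophagy genes 33 lay below 0 (median -0.31), and GABARAPL1, an autophagosome protein, passed at -1.11. ATP6V0A1, a proton pump subunit, was at -0.95 and at -1.03 after a second quantile normalization.

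Several lists held no member or a single member past the rule. Of 16 histone deacetylases 0 passed, with a range from -0.55 (HDAC10) to 0.55 (HDAC2), and HDAC1 was at 0.15. Of 27 DNA methylation and Polycomb genes only HELLS, a chromatin remodeller, passed (1.26), with a list median of 0.32. None of 30 receptor tyrosine kinase and ligand genes passed, from HBEGF at -0.90 to FGFR2 at 0.68. None of 36 Wnt, TGF-beta and Notch genes did, from ID3 at -0.69 to ID1 at 0.74. None of 35 NRF2 and redox genes did, from AKR1B10 at -0.91 to GCLM at 0.90. Ribosomal protein genes, a control list, held 0 of 51 past the rule with a median of 0.15 and 43 above 0. Respiratory chain genes held 0 of 46 with a median of 0.09. MYC read 12.40 untreated and 12.22 on both the VPA and combination arrays.

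Within the HDAC inhibitor response list 1 gene was higher and 1 lower, and the median was -0.23 with 12 of 19 below 0 (-0.43 over the members at level). DHRS2, a dehydrogenase known to rise with HDAC inhibitors, read 7.39 untreated, 7.22 with VPA, 7.34 with GEM and 8.23 with both (2.02-fold higher than with VPA). The other 3 arrays stood together at the low end. GSN, gelsolin, read 9.79, 10.92, 10.50 and 10.05, a difference of -0.87 that did not pass. CDKN1A, the lower gene of this list, is also a p53 target.

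The same addition of GEM could be read without VPA, as the difference between the GEM and untreated arrays. That difference shares no array with the difference between the combination and VPA arrays. It is still not a separate reading, since untreated lay close to the combination and VPA to GEM (0.996 each over rows). Opposite signs in the values below largely follow from those close pairs. Over the 18377 genes the pair of differences had a Pearson correlation of -0.855 and a Spearman correlation of -0.768, with opposite signs for 76.2% of genes. These are descriptions across genes, which are not independent replicates, of 4 arrays normalized together. Of the 172 genes higher on the combination array than with VPA all 172 lay below 0 for GEM over untreated, with a median of -1.32. Of the 195 lower genes all 195 lay above 0, with a median of 1.12. Against untreated, 172 genes were at least 2-fold higher on the GEM array (0.936%) and 349 lower (1.90%), or 521 in all (2.84%). Of these 249 also passed for the combination over VPA, always in the opposite direction, which is 67.8% of the calls for the combination over VPA and 47.8% of the calls for GEM over untreated. They comprised 136 genes lower with GEM alone and higher when GEM was added to VPA, and 113 the other way round.

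List medians showed the same turn of sign, which likewise largely follows from the close pairs of arrays. The medians for GEM over untreated and for the combination over VPA were -1.25 and 0.82 for origin licensing, -1.05 and 0.75 for mitotic kinesins and spindle, and -0.69 and 0.63 for replication-dependent histones. They were 0.52 and -0.45 for p53 targets, 0.30 and -0.39 for interferon-stimulated genes and 0.33 and -0.22 for keratin and junction genes. For all genes both medians were -0.01.

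**Figure D4:**
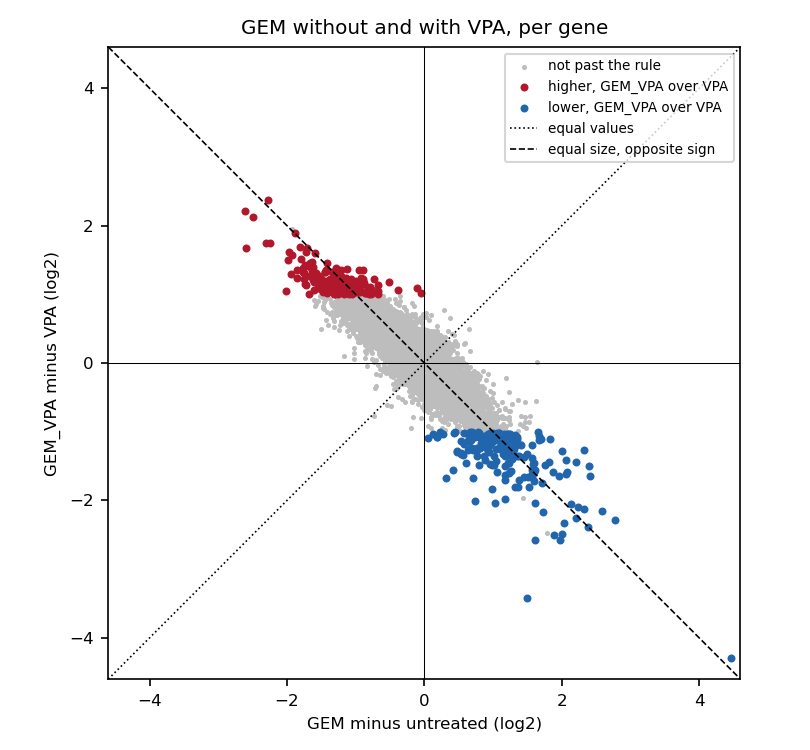
Difference between GEM and untreated arrays (log2, horizontal axis) against the difference between combination and VPA arrays (log2, vertical axis), 1 point per gene; red and blue points are at least 2-fold higher and lower in the latter. The points lie along the dashed line of equal size and opposite sign (Pearson -0.855), and 0 of the 367 coloured points lie in a quadrant where the signs agree.

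Of the 367 genes different between the combination and VPA arrays (2.00% of all genes), 363 were less than 2-fold from untreated on the combination array and 331 were within 0.5 of it. The robust SD between the untreated and combination arrays was 0.147 over all genes. Nearness to untreated was therefore not particular to the called genes, and the share of all genes within 0.5 was not computed. Over all genes 17 passed the rule for the combination over untreated (0.0925%). The 4 genes past it against both VPA and untreated were IQGAP2 (1.42 over untreated), TGM2 (1.21), FN1 (1.13) and SNORD41 (-1.13). IQGAP2, TGM2 and FN1 lay between untreated and VPA on the combination array. Since the VPA and untreated arrays enter several of these differences, the comparisons are not separate evidence.

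Some genes passed the rule against VPA although both single-drug arrays lay near untreated, a set chosen after the values were seen. In 7 of the 367 genes both single-drug arrays lay within 0.5 of untreated, 6 of them lower on the combination array and 1 higher. Against untreated only SNORD41 (-1.13) of these passed the rule. The others lay from -0.83 (IFI35) to 0.85 (DHRS2) from untreated on the combination array. DHRS2 was the higher gene, described above. ITGB8 read 10.12 untreated, 10.46 with VPA, 10.31 with GEM and 9.39 with both. F3 read 10.36, 10.78, 10.64 and 9.73. APOBEC3B, a cytidine deaminase that edits DNA, read 12.11, 12.55, 12.55 and 11.54. The combination array was thus the lowest of the 4 in each of these, as it was for IFI35 (9.45, 9.64, 9.88 and 8.62). The small nucleolar RNA SNORD41 read 13.21, 13.63, 13.62 and 12.08. The row named for MIR221 differed by -1.01, and its mature microRNA in RefSeq (GRCh38.p14, chrX:45746180-45746202, minus strand) is given with the seed in capitals.
hsa-miR-221-3p: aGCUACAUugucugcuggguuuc
After median centring IFI35 was at -0.96, and APOBEC3B and MIR221 were both at -0.95. The array labels longer transcripts, so this row reports RNA of the gene and not the mature microRNA. Rows of other small RNA genes, such as SNORD41, may likewise report longer RNA.

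In 15 of the 367 genes the GEM array lay within 0.5 of untreated. Of these 12 were lower and 3 higher on the combination array. Examples among the lower genes stood highest on the VPA array. TMPRSS11E, a membrane serine protease, read 6.28 untreated, 8.38 with VPA, 6.58 with GEM and 6.69 with both. SERPING1, the C1 inhibitor of complement, read 7.76, 8.89, 8.24 and 7.59. GLIPR1 read 7.29, 8.10, 7.34 and 7.01, and UCP2, a mitochondrial carrier, 10.03, 10.80, 10.21 and 9.72. The higher genes were DHRS2, MED10, a Mediator subunit that read 10.48, 9.82, 10.36 and 10.92, and the histone gene H2AC17, which read 8.69, 7.67, 8.30 and 8.73. MED10 and H2AC17 stood lowest on the VPA array. These genes were likewise chosen after their values were seen.

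Rows of small RNA genes, which may report longer RNA, did not shift together between the VPA and combination arrays. Against untreated the combination array had medians of -0.20 for SNORD, -0.19 for SNORA and -0.16 for SCARNA genes. The median of all genes was -0.03, and this offset of the families bears on SNORD41. Of 115 SNORD genes 2 were lower (SNORD41 at -1.56 and SNORD94 at -1.003, and -0.99 after a second quantile normalization) and 0 higher, and of 61 SNORA genes 1 was lower (SNORA22, -1.23). The SNORD and SNORA shares were 1.74% and 1.64%, against 1.06% of all genes lower. Of 16 Cajal body RNA genes with the SCARNA prefix 3 were lower (18.8%) and 0 higher, with a median of -0.16. They were SCARNA17 (-1.24), SCARNA7 (-1.24) and SCARNA9 (-1.10). RPPH1, the RNA of ribonuclease P, was at -1.35 and was chosen after its value was seen. Of 493 zinc finger genes with the ZNF prefix 2 were higher and 0 lower, with a median of 0.03. Rows without a single gene name were counted but not named. The rule was passed by 51 of 1752 rows with several symbols (2.91%) and 62 of 7807 rows with no symbol (0.794%). Decreases made up 40 and 47 of them. Among rows with 1 symbol 2.02% passed, 210 lower and 180 higher.

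Promoter sequences were compared as a description of what the called genes share. RefSeq promoter windows were matched for 139 of the 172 higher genes, 147 of the 195 lower genes and 14210 of the 18377 measured genes. Any of TTTGGCGC, TTTCGCGC, TTTCCCGC or TTTGCCGC on either strand, the letters that E2F factors bind, occurred in 22.3% of the higher genes and 2.72% of the lower genes, against 5.51% of measured genes and 3.31% of all 35116 windows. A gene counted where any of its windows matched. Without histone genes the share in the higher genes was 20.5%. TTTGAA or TTCGAA, the cell cycle homology region of late cell cycle genes, occurred in 33.8% of the higher and 16.3% of the lower genes, against 17.4% of measured genes and 16.4% of all windows. TGACTCA or its reverse TGAGTCA, the AP-1 site, occurred in 15.6% of the lower and 1.44% of the higher genes, against 5.27% and 4.95%. The interferon response element core occurred in 8.16% of the lower and 1.44% of the higher genes, against 4.12% and 3.57%. CATTCC occurred in 23.1% and 15.1%, against 15.5% of measured genes. CCAAT, on either strand, was in 51.1% of the higher and 42.9% of the lower genes, against 42.2% and 34.6%. CACGTG was in 14.4% and 3.40%, against 10.9% and 7.26%. TATAAA was in 12.2% and 19.0%, against 11.9% and 11.5%. TGATGCAA, the amino acid response element, was in 0.719% and 1.36%, against 0.971% and 0.866%. The CArG box was in 1.44% and 0.680%, against 1.70% and 1.29%. The median GC content was 63.0% for the higher and 59.7% for the lower genes, against 62.7% for measured genes. Motif frequencies follow base composition, genes with several start sites have more than 1 window, and a match is not a shown site. Called genes also had to reach the array median in their higher value, which 11600 of the 18377 measured genes did. The called and measured genes thus differ in level, and shares over genes at level alone were not computed.

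The promoters of the 3 non-histone genes with the largest increase among those with 1 window and an E2F match are shown with the E2F and TTTGAA or TTCGAA letters in capitals.
POLA1, chrX:24693668-24693967, plus strand: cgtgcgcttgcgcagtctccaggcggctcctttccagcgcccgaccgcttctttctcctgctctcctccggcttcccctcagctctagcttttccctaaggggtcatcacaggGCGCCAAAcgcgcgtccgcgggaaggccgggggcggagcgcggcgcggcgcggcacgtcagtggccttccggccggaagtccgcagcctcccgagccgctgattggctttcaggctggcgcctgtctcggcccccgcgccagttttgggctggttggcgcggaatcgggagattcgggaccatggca
KIF15, chr3:44761544-44761843, plus strand: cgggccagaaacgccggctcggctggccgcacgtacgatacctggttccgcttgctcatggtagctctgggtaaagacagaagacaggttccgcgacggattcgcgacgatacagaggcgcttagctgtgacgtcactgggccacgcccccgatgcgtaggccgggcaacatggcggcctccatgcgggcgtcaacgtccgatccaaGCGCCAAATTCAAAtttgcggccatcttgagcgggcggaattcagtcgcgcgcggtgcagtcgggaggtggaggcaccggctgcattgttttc
STAG1, chr3:136752329-136752628, minus strand: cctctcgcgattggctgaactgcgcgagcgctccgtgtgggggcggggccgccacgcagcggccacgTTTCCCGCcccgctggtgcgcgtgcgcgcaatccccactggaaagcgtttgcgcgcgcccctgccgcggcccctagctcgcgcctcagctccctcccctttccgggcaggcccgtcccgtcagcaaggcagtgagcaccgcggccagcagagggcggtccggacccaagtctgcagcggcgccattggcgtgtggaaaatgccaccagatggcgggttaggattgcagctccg
In KIF15 the E2F letters began 43 bases before the start and were followed directly by TTCAAA, the reverse of TTTGAA. The matches in POLA1 and STAG1 began 137 and 183 bases before the start. EBI3, a cytokine subunit that read 8.14, 9.69, 9.31 and 7.99 (3.24-fold lower), and SRPX2, a secreted matrix protein that read 9.79, 11.62, 11.36 and 9.96 (3.16-fold lower), are shown for AP-1. They were the lower genes of largest size with 1 window and a match, apart from ARRDC4.
EBI3, chr19:4229273-4229572, plus strand: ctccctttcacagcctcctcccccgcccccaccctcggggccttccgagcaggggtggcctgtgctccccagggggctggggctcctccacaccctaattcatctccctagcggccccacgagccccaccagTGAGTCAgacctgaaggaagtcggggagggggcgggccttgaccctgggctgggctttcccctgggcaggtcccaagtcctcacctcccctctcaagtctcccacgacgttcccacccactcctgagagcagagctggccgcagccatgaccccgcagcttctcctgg
SRPX2, chrX:100643949-100644248, plus strand: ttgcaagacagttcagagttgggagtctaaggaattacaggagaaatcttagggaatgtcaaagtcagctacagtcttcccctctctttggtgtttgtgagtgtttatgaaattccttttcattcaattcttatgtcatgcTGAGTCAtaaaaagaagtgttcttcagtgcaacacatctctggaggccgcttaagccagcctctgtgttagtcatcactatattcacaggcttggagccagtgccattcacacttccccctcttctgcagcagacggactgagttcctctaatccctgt
The marked letters began 118 and 109 bases before the start.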

How the data were processed

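RNA of HuCCT1 cells under 4 conditions was labelled for whole-transcript arrays (Affymetrix Human Gene 1.0 ST), 1 array per condition. The authors deposited log2 intensities; the labels' series text names GeneSpring GX 11.5 for normalization, and the submitters' processing notes name RMA. RMA corrects background, equalises distributions between arrays and compresses low values, so array-wide shifts are lost. No scanner file or detection call entered, and no source used here gives a genome build for the rows.

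Rows with exactly 1 symbol in the platform annotation (19310 of 28869) were averaged into 18377 genes; 99.84% of them matched RefSeq by Entrez ID. Rows with several symbols or none were counted but not named. A gene was called at a log2 difference of at least 1 with its higher value at or above that array's median. With 1 array a side there is no test, error or p-value, and the number of arrays limits the precision.

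Named genes were the 15 largest increases and decreases, up to 6 called members in each direction of 47 lists (or the largest 2), the genes past the rule over both VPA and untreated, genes near the limit and a few fixed genes. The fixed rule also named genes with the same sign for GEM over untreated, of which there were 0. A further set was chosen after values were seen: 53 genes outside this rule, such as list members beyond the 6 with the largest sizes (MCM7, MCM3, TOPBP1, GMNN, RFC4, H2BC7, H4C1, H1-2), other list members (ABCC10, RRM2B, GSN, TXNIP, FOS, DBF4B, CDC6, DDIT4, FGFR2), SLC2A14, EBI3, SRPX2 and families with a shared prefix. The members, lists and rules were chosen with earlier results of these data known. The counting rule was tested on simulated data. Alternatives were a second quantile normalization, median centring, other level filters and fold limits, the brightest row per gene and, for list medians, members at level only. Promoter and microRNA sequences came from RefSeq (GRCh38.p14). Python 3.11.15, numpy 2.4.6, pandas 2.3.3, scipy 1.17.1 and matplotlib 3.10.9 were used.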

Additional observations from a re-analysis of the deposited data

Results flagged for a closer look

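The difference between arrays with and without GEM had opposite signs in the presence and absence of VPA for 249 genes past the 2-fold rule both ways. Each side was 1 array against 1 array, so the difference between the sides was not tested. The VPA and GEM arrays were close to each other (0.996 over rows), as were the untreated and combination arrays (0.996), and exchanged labels cannot be told apart from effects of the agents. The size is given as the difference with VPA present minus the difference with VPA absent, on the log2 scale. It is given for 15 genes from each end of the ranking by the first term. Since the ranking used that term, the sign of the size is no further evidence. At the high end the sizes were DLEU2 (4.06), H2AC13 (3.32), H2AC15 (3.48), H2AC4 (4.62), H2BC14 (4.26), H3C1 (3.79), H3C12 (4.82), H4C2 (4.00), H4C4 (3.38), LMNB1 (3.58), PARPBP (3.50), POLA1 (3.34), SLC7A11 (4.64), SLC7A2 (3.51) and THOC6 (3.19). At the low end they were ACTBL2 (-4.35), ANKRD1 (-4.92), APOD (-3.89), ARRDC4 (-5.06), CEACAM1 (-4.74), FXYD3 (-4.34), IFI6 (-4.50), IQGAP2 (-4.46), KRT7 (-4.17), KRTAP3-1 (-8.76), PTAFR (-4.19), RASGRP3 (-4.46), SLC2A3 (-4.54), TCN1 (-4.39) and TP53INP1 (-4.75). KRTAP3-1 had the largest size of these genes, and its 2 rows hold the same values.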

How the results depend on the processing

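The count of genes at least 2-fold higher and lower was 172 and 195, with 249 genes opposite in both GEM comparisons. Second quantile normalization gave 153 and 217 (254 opposite), median centring 225 and 163 (265), no level filter 176 and 204 (262), a level filter on both arrays 152 and 146 (204), and the brightest row per gene 177 and 197 (253). All lay within 1.5 times the counts as reported. The fold limit moved them further, to 1064 and 686 (1286 opposite) at 1.5-fold and 12 and 39 (32 opposite) at 3-fold. Under each of these settings 0 genes passed the rule in both GEM comparisons in the same direction, although at 1.5-fold 5 called genes had the same sign for GEM over untreated. Of the 166 genes named by the fixed rule 159 kept their call after second quantile normalization, 157 with median centring and 166 with the brightest row, and of the 53 genes named outside it 50, 49 and 53 did. No called gene among these changed sign. Counts of list members moved as well. Higher origin licensing genes numbered 8 instead of 10 after second quantile normalization. Higher DNA polymerase and fork genes numbered 12 instead of 9 with median centring. Medians changed sign with a setting for the gemcitabine handling, biliary and hepatic lineage, glucose use, cholesterol and fibroblast marker lists, all between -0.05 and 0.05 as reported. Over members at level only, the medians of the leukocyte, hepatocyte and neuronal marker lists were -0.75, -0.64 and -1.10, against -0.21, -0.11 and -0.09 over all members. No paired analysis was possible because each condition has 1 array. No array could be left out for the same reason, so no value here has a replicate check. Signal over background was not available for these rows, and values below the lower quartile may understate a difference: 3 of the 195 lower genes and 0 of the 172 higher genes had their lower value there.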
